A study of Mus musculus with 14 samples.

Results

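The 8 genes described here encode the intermediate filament proteins of neurons, glia and their progenitors: Nefl, Nefm, Nefh, Ina, Prph, Vim, Gfap and Nes. They were chosen by name, from knowledge of the protein family, with their values in these same libraries already known. Their difference between treated and control cultures is therefore given as a description. All 8 were found among the 43629 gene identifiers of the count tables, and all 8 were among the 15959 genes that passed the filter on low counts. Chromatin peaks of L3mbtl1 within 2000 bp of either end of the 8 genes were added, since L3mbtl1 is the chromatin reader that the study is about.

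RNA was sequenced from 8 primary hippocampal cultures of wild-type C57BL6 mice, made from pups of postnatal day 0 to 1 and held for 14 days in vitro in medium with 2% B27. The PTX group (4 libraries) received 100 µM picrotoxin for 15 h. The CTRL group (4 libraries) received 0.1% DMSO for 15 h, and the labels used here do not name the solvent of the picrotoxin. Picrotoxin closes GABA-A channels and by lifting inhibition makes the neurons fire more. The other 6 of the 14 samples are L3mbtl1 ChIP-seq of hippocampus at postnatal day 7 to 8, from 3 L3mbtl1-/- and 3 wild-type mice of a C57BL6/129 background. The 6 share a single deposited peak list, so the genotypes were not compared. The peaks thus come from uncultured tissue without a picrotoxin group.

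Intermediate filaments are rope-like polymers whose subunits differ between cell types. In neurons of the central nervous system, the light (Nefl), medium (Nefm) and heavy (Nefh) neurofilament proteins assemble with alpha-internexin (Ina), and they set the calibre of axons. Nefl forms the core of the filament, and the long tails of Nefm and Nefh are phosphorylated in axons. Peripherin (Prph) is typical of peripheral neurons. Glial fibrillary acidic protein (Gfap) marks astrocytes, vimentin (Vim) is shared by astrocytes, progenitors, fibroblasts and vessel cells, and nestin (Nes) marks neural progenitors and reactive glia.

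RefSeq promoter windows on build GRCm38.p6 were matched for Ina, Prph, Vim, Gfap and Nes. The 250 bases before the transcription start are shown for 3 of them. Ina is shown because an L3mbtl1 peak reaches its start, and the 24 bases inside the peak are in capitals. Vim is shown for its TATA motif, in capitals. Gfap, the only one of the 8 genes called lower with group alone, is shown because none of the motifs searched was found in it, and so it has no capitals. All are written 5′ to 3′ on the gene's strand, with their positions at chr19:47014431-47014680 (Ina, plus strand), chr2:13574061-13574310 (Vim, plus strand) and chr11:102897201-102897450 (Gfap, minus strand).
Ina: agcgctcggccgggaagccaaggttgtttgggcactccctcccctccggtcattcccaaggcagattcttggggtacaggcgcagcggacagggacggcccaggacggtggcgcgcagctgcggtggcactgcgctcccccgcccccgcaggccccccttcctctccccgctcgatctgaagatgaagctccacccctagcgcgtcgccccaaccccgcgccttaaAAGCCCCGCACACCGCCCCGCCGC
Vim: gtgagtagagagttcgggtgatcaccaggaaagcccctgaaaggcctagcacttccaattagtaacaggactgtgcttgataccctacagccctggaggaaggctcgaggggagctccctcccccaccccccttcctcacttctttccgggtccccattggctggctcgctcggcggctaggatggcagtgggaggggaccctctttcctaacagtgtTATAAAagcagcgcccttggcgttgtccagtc
Gfap: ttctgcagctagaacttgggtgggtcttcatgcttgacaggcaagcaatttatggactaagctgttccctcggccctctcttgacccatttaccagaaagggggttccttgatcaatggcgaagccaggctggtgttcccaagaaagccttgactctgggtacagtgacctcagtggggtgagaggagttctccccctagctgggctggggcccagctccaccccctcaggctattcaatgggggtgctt

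The windows were searched on both strands for the AP-1 motif TGANTCA, the CRE motif TGACGTCA, the STAT motif TTCNNNGAA, the TATA motif TATAAA, the GC box GGGCGG, the E-box CANNTG and the CCAAT box. Of the 32851 mouse promoter windows of the same length, 6.75% held the AP-1 motif, 1.55% the CRE motif and 7.02% the STAT motif. None of these 3 was matched in the Ina, Prph, Vim, Gfap or Nes window. The TATA motif was matched 32 bases before the start of Vim and 31 bases before that of Prph, and 12.4% of all windows held it. Vim also held CCAAT boxes starting 196 and 94 bases before the start, a motif found in 33.8% of windows. Ina held GC boxes at 111 and 12 bases before the start and an E-box at 135 bases. Nes held GC boxes at 73 and 62 bases, and Prph held one at 24 bases. A GC box was present in 32.7% of all windows and an E-box in 66.2%. GC content was 70.8% for Ina, 65.2% for Prph, 58.4% for Vim, 55.6% for Gfap and 58.8% for Nes, beside a median of 52.4% over all windows. Ina held 25 CpG dinucleotides, Nes 15, Vim 8, Prph 7 and Gfap 2, beside a median of 6. A match is a run of letters and says nothing about binding.

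Gene counts per library ran from 14524916 to 19498189. The libraries numbered 1 in both groups stood apart from the others. Their summed level of 8 fibroblast markers was 564.7 CPM (counts per 1000000, on library sizes scaled by edgeR's TMM method) in PTX and 709.6 CPM in CTRL, while the other libraries lay between 114.6 and 225.1 CPM. Their summed microglial markers were 41.1 CPM in PTX and 15.2 CPM in CTRL, against 54.6 to 135.4 CPM elsewhere. Their summed endothelial and mural markers were 135.2 CPM in PTX and 142.2 CPM in CTRL, against 365.1 to 479 CPM elsewhere, a sum in which Acta2 was the largest part. Markers of the labelled tissue were high throughout: 10 pan-neuronal genes summed to 4166 to 5786 CPM in PTX and 3735 to 4850 CPM in CTRL, and 10 astrocyte genes to 4703 to 6141 CPM in PTX and 5718 to 7681 CPM in CTRL. Map2 alone averaged 3018 CPM in PTX and 2034 CPM in CTRL, while the median log2 fold change of the 10 pan-neuronal genes was -0.13, PTX over CTRL. In such mixed cultures, fewer cells of a type and less RNA per cell cannot be told apart.

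In the fit across all 15959 genes with group as the only term (edgeR quasi-likelihood test, Benjamini-Hochberg adjusted p under 0.05), Nefl and Nefm were called higher in PTX and Gfap lower, while Nefh, Ina, Prph, Vim and Nes were not called. Of all tested genes, 19.0% were called higher and 20.1% lower. Since the genes were chosen with this contrast known, nothing is read from their count. The share of all tested genes whose groups did not overlap was not counted. A lack of overlap is therefore also given only as a description. Same-numbered PTX and CTRL libraries varied together for numbers 1, 2 and 4, and only weakly for number 3 (correlation 0.154). With the replicate number as a block 4 of the 8 were called higher (Nefl, Nefm, Vim, Nes) and 2 lower (Gfap, Prph), beside 25.7% of all tested genes called higher and 29.6% lower. The median log2 fold change was 0.21 for the 8 genes and -0.03 over all tested genes.

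**Figure D1:**
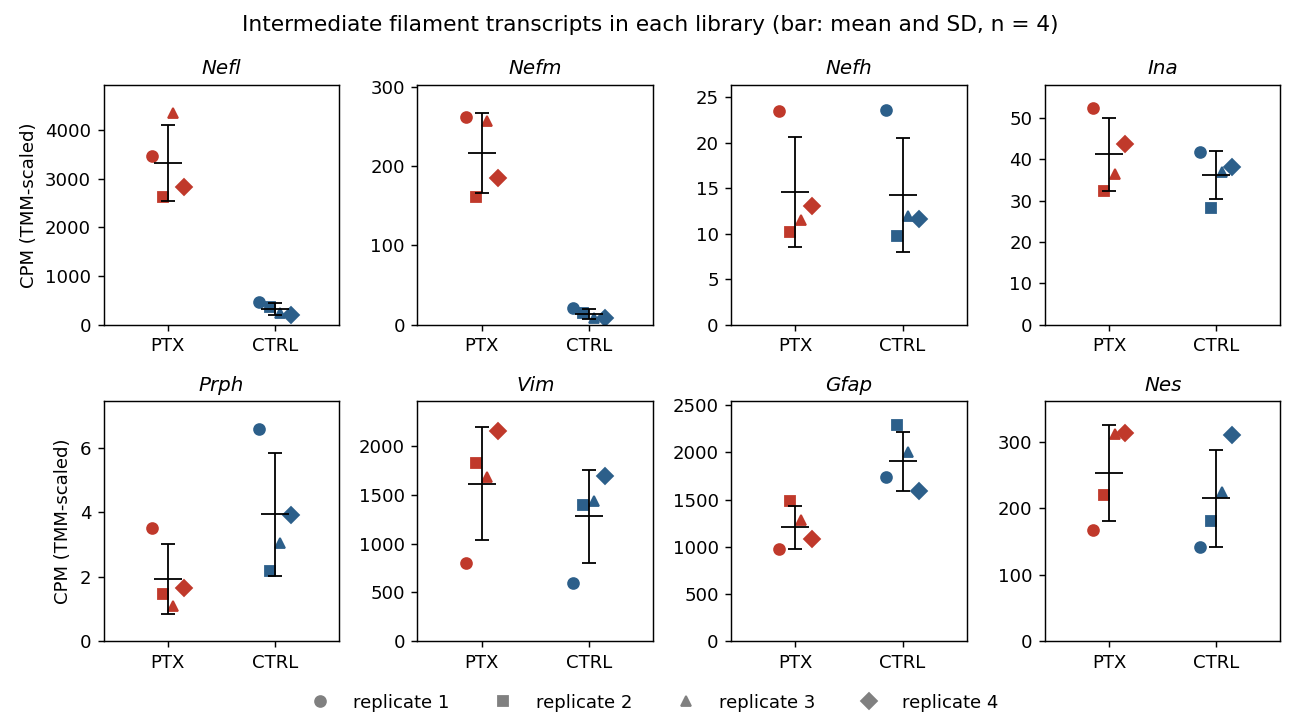
Level of each of the 8 transcripts in every library, in CPM on TMM-scaled library sizes, with 4 PTX libraries left of 4 CTRL libraries; marker shape gives the replicate number and the bars the mean and SD. The groups do not overlap for Nefl, Nefm and Gfap, and the share of all tested genes without overlap was not counted. The libraries numbered 1 are the highest for Nefh, Ina and Prph in PTX and in CTRL and the lowest for Vim and Nes in both.

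Nefl (ENSMUSG00000022055, mm10 chromosome 14, 68083863 to 68089095) encodes the light neurofilament protein. Its level was 3468, 2626, 4353 and 2826 CPM in PTX libraries 1 to 4, against 466.9, 364.1, 237.2 and 209.1 CPM in CTRL libraries 1 to 4. The lowest PTX library was far above the highest CTRL library. The means were 3318 ± 777.7 CPM in PTX and 319.3 ± 119.3 CPM in CTRL (SD, n = 4 each), a 10.4-fold higher level in PTX (log2 fold change 3.38, SE 0.28). The ratio of PTX to CTRL within same-numbered pairs was 7.43, 7.21, 18.4 and 13.5. The values rest on 208592 reads in PTX and 22357 reads in CTRL. In CPM gained per gene, Nefl ranked 4 of 15959, and by log2 fold change it ranked 144.

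Nefm (ENSMUSG00000022054, chromosome 14, 68119545 to 68125004), the medium neurofilament gene, lies 30450 bp from Nefl. It stood at 261.4, 161.4, 256.9 and 185.4 CPM in the PTX libraries and at 21.1, 15.4, 8.29 and 8.30 CPM in the CTRL libraries. Here too every PTX library was above every CTRL library. The mean was 216.3 ± 50.5 CPM in PTX and 13.3 ± 6.18 CPM in CTRL, 16.3-fold higher in PTX (log2 fold change 4.03, SE 0.32), and the ratio within pairs ran from 10.5 to 31.0. For both genes the pairs numbered 3 and 4, with the lowest CTRL levels, gave the largest ratios. Without the libraries numbered 1 the log2 fold change was 3.64 (SE 0.26) for Nefl and 4.28 (SE 0.28) for Nefm.

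Nefh (ENSMUSG00000020396, chromosome 11, 4938754 to 4948064), the heavy subunit, differed little between the groups. It had 23.4, 10.1, 11.5 and 13.0 CPM in PTX and 23.6, 9.76, 12.0 and 11.6 CPM in CTRL. The groups overlapped fully, and the library numbered 1 was about as high in PTX as in CTRL. Means were 14.5 ± 6.05 CPM in PTX and 14.2 ± 6.31 CPM in CTRL (log2 fold change 0.03, SE 0.33). With the replicate block the SE was 0.09 around a log2 fold change of 0.04, and without the libraries numbered 1 the change was 0.09 (SE 0.15). Its sign turned when single libraries were left out, to -0.25 without PTX library 1 and to between -0.11 and -0.05 without CTRL library 2, 3 or 4.

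Ina (ENSMUSG00000034336, chromosome 19, 47014681 to 47025327), the alpha-internexin gene, also overlapped between groups. It had 52.5, 32.4, 36.3 and 43.7 CPM in PTX and 41.7, 28.1, 36.9 and 38.2 CPM in CTRL. The PTX library was the higher one of the pair for numbers 1, 2 and 4, and the lower one for number 3. The mean was 41.2 ± 8.85 CPM in PTX and 36.2 ± 5.79 CPM in CTRL (log2 fold change 0.19, SE 0.16). With the replicate block the log2 fold change was 0.18 (SE 0.08), close to a call (edgeR adjusted p = 0.0633). Ina was called with neither model. By the fitted fold change between groups, Ina was 1.14-fold and Nefh 1.02-fold higher in PTX, in the same libraries in which Nefl was 10.4-fold and Nefm 16.3-fold higher.

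Prph (ENSMUSG00000023484, chromosome 15, 99053579 to 99058978), the peripherin gene, was scarce. It had 55, 25, 16 and 27 reads in PTX and 112, 39, 61 and 60 reads in CTRL. In CPM that was 3.51, 1.47, 1.1 and 1.64 in PTX and 6.6, 2.19, 3.05 and 3.92 in CTRL. The PTX library was the lower one in 4 of 4 pairs, although the groups overlapped through the high PTX library numbered 1. The log2 fold change was -1.02 (SE 0.42), not called with group alone. It was called with the replicate block (-1.03, SE 0.20) and without the libraries numbered 1 (-1.07, SE 0.30). The 7 markers of peripheral sensory neurons summed to 5.81 to 8.73 CPM in PTX and 4.48 to 5.84 CPM in CTRL. Most of that was Calca, a neuropeptide gene, with 309 reads in PTX and 209 in CTRL, and Avil, with 102 reads in PTX and 113 in CTRL, while Scn10a, a sodium channel of sensory neurons, had 0 reads in PTX and 2 in CTRL. Their part in the Prph level was not tested.

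**Figure D2:**
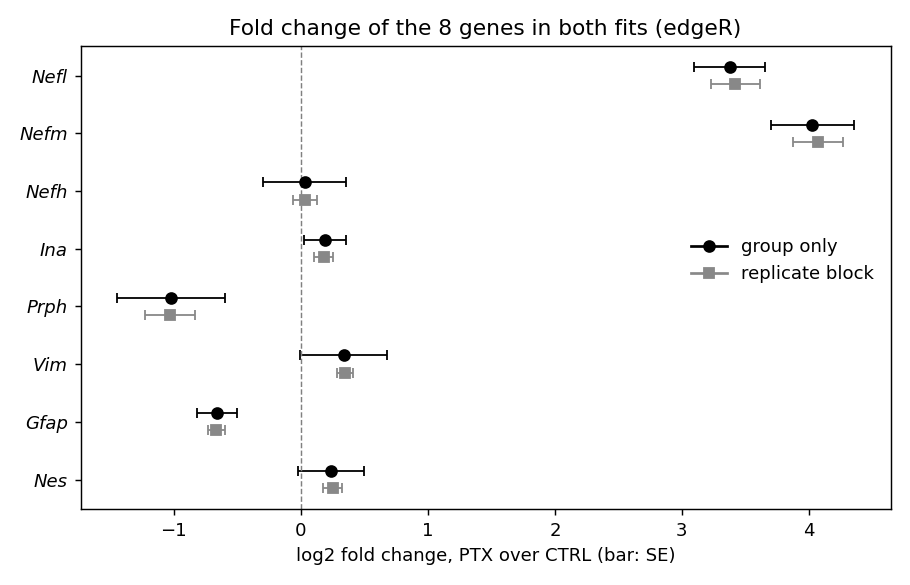
Log2 fold change of the 8 genes, PTX over CTRL, with its SE derived from the F statistic, from the fit with group alone (black circles) and with the replicate number as a block (grey squares). Nefl (3.38) and Nefm (4.03) lie far to the right of the others, Gfap (-0.66) and Prph (-1.02) lie left of 0, and the block narrows the error of Vim most.

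The uneven change of the neurofilament genes showed in their proportions. No transcript lengths were used here, so these are shares of read counts, which can be compared between libraries for a gene and not between genes. Of the counts of Nefl, Nefm, Nefh and Ina together, Nefl took 91.1, 92.8, 93.5 and 92.1% in PTX and 84.4, 87.2, 80.6 and 78.3% in CTRL. Nefm took 6.03 ± 0.60% in PTX and 3.35 ± 0.47% in CTRL. Both shares were higher in every PTX library than in any CTRL library. The share of Nefh was 0.412 ± 0.155% in PTX and 3.76 ± 0.952% in CTRL, and that of Ina 1.18 ± 0.295% in PTX and 10.3 ± 3.70% in CTRL. Both were lower in every PTX library than in any CTRL library.

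Set against each other, the light and medium genes did not move in exact step. There were 7.54, 6.15, 5.9 and 6.56 Nefm counts per 100 Nefl counts in PTX, against 4.51, 4.22, 3.49 and 3.97 in CTRL, without overlap. Nefh per 100 Nefl counts was 0.447 ± 0.173 in PTX and 4.59 ± 1.29 in CTRL. Nefh per 100 Nefm counts was 6.69 ± 1.85 in PTX and 115 ± 37.3 in CTRL. For the pair of genes that was not called, Nefh per 100 Ina counts was 34.4 ± 6.9 in PTX and 38.6 ± 12.1 in CTRL, with overlapping groups. The summed level of the 5 neuronal filament genes was 3592 ± 823.8 CPM in PTX and 387 ± 132.2 CPM in CTRL. Over all 8 genes it was 6667 ± 923.5 CPM in PTX and 3784 ± 528.6 CPM in CTRL, and without Nefl 3348 ± 716.1 CPM in PTX and 3465 ± 606.6 CPM in CTRL, so that the groups overlapped once Nefl was left out.

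**Figure D3:**
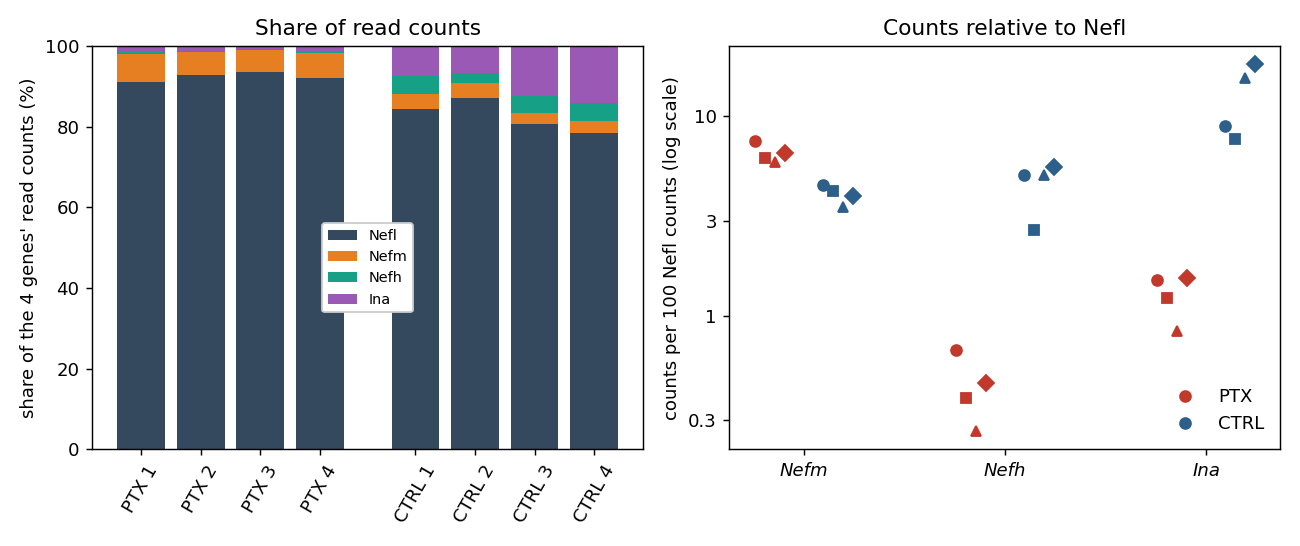
Left, share (%) of the read counts of Nefl, Nefm, Nefh and Ina in each PTX and CTRL library; right, counts of Nefm, Nefh and Ina per 100 Nefl counts on a log scale, with marker shapes for replicate numbers 1 to 4 (circle, square, triangle, diamond). Nefm per Nefl is higher in PTX, while Nefh and Ina per Nefl are lower in PTX, with no overlap between the groups in any of the 3.

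The glial and progenitor filament genes had smaller fold changes than Nefl and Nefm, and not in one direction. Vim (ENSMUSG00000026728, chromosome 2, 13574311 to 13582826) had 800.3, 1823, 1687 and 2157 CPM in PTX and 596.2, 1392, 1435 and 1696 CPM in CTRL. The library numbered 1 was the lowest by far in both groups, and the PTX library was the higher one in all 4 pairs, by 1.34, 1.31, 1.18 and 1.27-fold. The log2 fold change was 0.34 (SE 0.34) with group alone and was not called. It was called with the replicate block (0.35, SE 0.06) and without the libraries numbered 1 (0.36, SE 0.12). The low Vim of those libraries stood beside their low summed endothelial and mural markers and their high summed fibroblast markers given above. Single genes of these sums differed. In the endothelial and mural list Acta2 was low, with 1646 reads in PTX library 1 and 1967 in CTRL library 1, and so was Kdr. Pecam1 and Abcc9 of that list were highest in the libraries numbered 1, and Ogn of the fibroblast list was lowest there. The part of vessel cells and fibroblasts in the Vim level was not tested.

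Gfap (ENSMUSG00000020932, chromosome 11, 102887336 to 102897200) had 972.9, 1483, 1282 and 1078 CPM in PTX and 1738, 2284, 2003 and 1585 CPM in CTRL. Every PTX library was below every CTRL library. The mean was 1204 ± 226 CPM in PTX and 1903 ± 307.6 CPM in CTRL (SD, n = 4 each), 1.58-fold lower in PTX (log2 fold change -0.66, SE 0.16). Without the libraries numbered 1 the log2 fold change was -0.57 (SE 0.14).

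Nes (ENSMUSG00000004891, chromosome 3, 87971093 to 87980451) had 167.8, 220.1, 311.6 and 313.6 CPM in PTX and 142.5, 181, 224.9 and 311.2 CPM in CTRL. PTX was the higher one in 4 of 4 pairs, but in the pair numbered 4 only by 1.01-fold. The log2 fold change was 0.24 (SE 0.26) with group alone, not called, and 0.25 (SE 0.08) with the replicate block, called. Without the libraries numbered 1 it was 0.27 (SE 0.21), not called with group alone. Gfap counts per 100 Vim counts were 122, 81.3, 76 and 50 in PTX and 292, 164, 140 and 93.5 in CTRL, so the ratio was lower in PTX in every pair, while the groups overlapped.

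The spread between libraries of a group also set the genes apart. As a description over 8 libraries, with no test, the deviations of log2 CPM from the group means had a Pearson r of 0.97 between Nefl and Nefm, 0.93 between Nefh and Prph, 0.85 between Nefh and Ina, and 0.85 between Vim and Nes. Nefh and Vim had an r of -0.91, and Ina and Gfap -0.92. The points share library depth, and the libraries numbered 1 are the extremes of Nefh, Prph and Vim, with deviations of 0.76 in PTX and 0.81 in CTRL for Nefh, 0.95 in PTX and 0.84 in CTRL for Prph, and -0.92 in PTX and -1.0 in CTRL for Vim. Among the 10073 genes with a mean of at least 10 CPM, those most like each gene by this measure were Kif5b (0.994) and Spata5 (0.991) for Nefl, Ube2w (0.987) and Tmem87b (0.986) for Nefm, and Clstn2 (0.997) and Galntl6 (0.993) for Nefh. They were Anapc1 (0.993) and Neo1 (0.985) for Ina and Ermp1 (0.981) and Zfp512b (0.974) for Prph. For the glial genes they were F2r and Ttc12 (both 0.996) for Vim, Arhgef3 (0.997) and Psmg4 (0.991) for Gfap, and Aard (0.993) and Prss23 (0.988) for Nes. Each is among the highest of 10073 values over only 8 libraries, where values near 1 arise readily, so nothing is read from these names.

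L3mbtl1 peaks lay within 2000 bp of an end of 5 of the 8 genes: all 4 central neurofilament genes and Vim. Of 13661 tested protein-coding genes with a position, 26.4% had such a peak, and 5.49% had at least 2, as Nefl and Nefm did. Since the peaks belong to the rule by which the genes were described, nothing is read from this count. The deposited list held 4677 peaks with the authors' score, between 8.17 and 52.2 with a median of 10.7, and a median length of 747 bp.

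At Nefl, a peak of 1500 bp (chromosome 14, 68083510 to 68085009, score 12.1, rank 1623 of 4677) lay over the end of lower coordinate. Another of 1149 bp (68082253 to 68083401, score 11) lay 462 bp outside the same end, where an end of Gm31107 is also within 2000 bp. At Nefm, 1 peak (68125415 to 68126354, score 12.8) began 411 bp beyond the end of higher coordinate and another (68123420 to 68124830, score 11.1) lay inside the gene near that end. Both also lay within 2000 bp of an end of A230070E04Rik, a gene not analysed here that overlaps Nefm. How reads of that overlap were counted is not known. The peaks of Nefl and Nefm were thus at the ends that face away from each other.

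At Nefh, a peak of 1471 bp (chromosome 11, 4947189 to 4948659, score 15.1, rank 750) covered the end of higher coordinate, which Ap1b1 overlaps. At Ina, a peak of 2620 bp (chromosome 19, 47014657 to 47017276, score 19.1, rank 274) began in the 24 promoter bases shown in capitals above and ran into the gene; it is also near an end of Nt5c2. This was the longest and best-scored peak at the 8 genes. At Vim, a peak of 592 bp (chromosome 2, 13575887 to 13576478, score 8.40, rank 4381) began 1576 bp after the start. Prph, Gfap and Nes had none, with the nearest peak 68.1, 68.6 and 40.2 kb away. Genes with a peak included those called higher (Nefl, Nefm) and those not called with either model (Nefh, Ina).

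**Figure D4:**
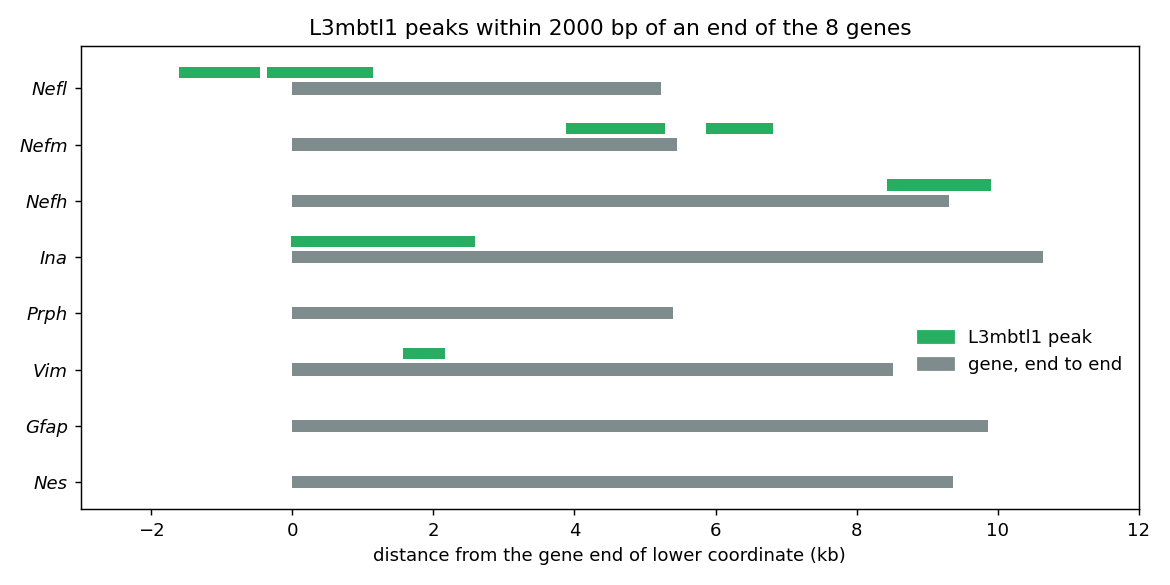
Position of the L3mbtl1 peaks (green) along each of the 8 genes (grey, end to end), as distance in kb from the gene end of lower coordinate on mm10. Nefl and Nefm have 2 peaks each, Nefh, Ina and Vim 1 each, and Prph, Gfap and Nes none within 2000 bp of an end.

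The genes that share these peaks had their own values. Ap1b1, a subunit of the AP-1 clathrin adaptor, had 77.9 ± 7.29 CPM in PTX and 98.3 ± 5.43 CPM in CTRL (log2 fold change -0.34, SE 0.09, edgeR adjusted p = 0.0119); the call was lost without PTX library 3 (edgeR adjusted p = 0.0734) or 4 (0.0666). Nt5c2, a cytosolic nucleotidase, had 54.1 ± 8.28 CPM in PTX and 101.2 ± 10.0 CPM in CTRL (log2 fold change -0.90, SE 0.12, edgeR adjusted p = 0.000253). Both overlap the filament gene beside them, and with the strand setting of the counting not given, how reads in the overlap were counted is not known. Within 200 kb of Nefl and Nefm, Dock5 was the only other tested gene, with 9.24 ± 0.44 CPM in PTX and 12.0 ± 2.73 CPM in CTRL (log2 fold change -0.37, SE 0.16, edgeR adjusted p = 0.102, and 0.0267 with the replicate block). Dock5, unlike Nefl and Nefm, had the lower mean in PTX. Around all 8 genes, 55 other tested genes lay within 200 kb, of which 3 were called higher (Taf5 and Pdcd11 near Ina, Trdmt1 near Vim, named after their values were seen) and 20 lower, beside 19.0% higher and 20.1% lower over all tested genes.

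Genes that work with these filaments were read from 5 lists, 64 genes of which 58 were tested. In the same fit 7 rose and 9 fell, beside 19.0% higher and 20.1% lower over all tested genes, and the median log2 fold change was -0.03, beside -0.03 over all tested genes. With the replicate block 14 rose and 18 fell, beside 25.7% higher and 29.6% lower over all tested genes. The lists were drawn up with earlier results of these libraries known, so their counts are a description. Of the other intermediate filament genes, 2 of 9 tested rose and the other 7 were not called. Lmna, which encodes the A-type lamins of the nuclear envelope, had 59.5 ± 1.62 CPM in PTX and 37.3 ± 3.93 CPM in CTRL (log2 fold change 0.67, SE 0.09, edgeR adjusted p = 0.000206). Iffo2, an orphan of the family, had 34.3 ± 2.37 CPM in PTX and 13.8 ± 1.33 CPM in CTRL (1.32, SE 0.10, edgeR adjusted p = 9.2e-06). The B-type lamins Lmnb1 (0.24, SE 0.12) and Lmnb2 (-0.01, SE 0.09) and Synm (-0.29, SE 0.11), the synemin that joins vimentin filaments, were not called. Lmnb1 was called in 4 and Synm in 3 of 15 alternatives, in both cases with the replicate block among them (edgeR adjusted p = 0.0125 for Lmnb1 and 0.00635 for Synm). Of 7 linker genes, Evpl, envoplakin, rose to 1.06 ± 0.36 CPM in PTX, against 0.313 ± 0.139 CPM in CTRL (edgeR adjusted p = 0.00789), and Dsp, desmoplakin, fell to 1.09 ± 0.48 CPM in PTX, against 3.49 ± 0.75 CPM in CTRL (edgeR adjusted p = 0.00173). The large cross-linkers Plec (-0.38, SE 0.18), Dst (0.03, SE 0.18) and Macf1 (-0.04, SE 0.21) were not called. Plec was called in 3 of 15 alternatives, the replicate block (edgeR adjusted p = 0.000487) among them.

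Of 19 genes for kinases and phosphatases that act on filament tails and heads, 2 rose and 5 fell, and 2 rose and 8 fell with the replicate block. Rock2, a kinase that phosphorylates Vim, Gfap and Nefl proteins, had 929.7 ± 59.2 CPM in PTX and 342.4 ± 12.8 CPM in CTRL (log2 fold change 1.44, SE 0.08, edgeR adjusted p = 1.64e-06). Ppp2ca, the catalytic subunit of protein phosphatase PP2A, rose by less (0.42, SE 0.10, edgeR adjusted p = 0.0101). Kinases that phosphorylate the neurofilament tail were among those that fell. Cdk5 had 34.0 ± 5.56 CPM in PTX and 60.8 ± 8.64 CPM in CTRL (-0.84, SE 0.14, edgeR adjusted p = 0.000958), and its activator Cdk5r1 had 121.5 ± 17.7 CPM in PTX and 204.7 ± 24.5 CPM in CTRL (-0.75, SE 0.12, edgeR adjusted p = 0.000963). Mapk3 had 19.2 ± 2.2 CPM in PTX and 43.2 ± 4.11 CPM in CTRL (-1.17, SE 0.11, edgeR adjusted p = 2.79e-05). Gsk3a (-0.44, SE 0.10, edgeR adjusted p = 0.00754) also fell, and its call was lost without PTX library 3 (edgeR adjusted p = 0.0549). Gsk3b (0.07, SE 0.09) and the other Cdk5 activator Cdk5r2 (0.05, SE 0.19) were not called.

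Of 13 genes of filament transport and turnover, 1 rose and 2 fell, and 4 rose and 4 fell with the replicate block. Kif5a, the neuronal kinesin heavy chain that moves neurofilaments along axons, had 400.4 ± 30.6 CPM in PTX and 626.9 ± 69.8 CPM in CTRL (log2 fold change -0.65, SE 0.10, edgeR adjusted p = 0.000625), while Kif5b (0.19, SE 0.08) and Kif5c (-0.14, SE 0.16) were not called. Kif5b was called in 6 of 15 alternatives, the replicate block (edgeR adjusted p = 0.0231) among them. Casp6, a caspase that cuts Vim and other filament proteins, had 6.98 ± 0.24 CPM in PTX and 4.41 ± 0.63 CPM in CTRL (edgeR adjusted p = 0.0061). The calpain gene Capn1 fell (-0.67, SE 0.21, edgeR adjusted p = 0.0285), a call lost without PTX library 1 (0.0856) or 3 (0.101) or without CTRL library 2 (0.0514) or 4 (0.0796). Of 10 tested regulators of these genes, 1 rose and 1 fell, and 4 rose and 3 fell with the replicate block. Stat3, which drives Gfap in astrocytes, had 212.1 ± 29.2 CPM in PTX and 138.6 ± 20.2 CPM in CTRL (0.61, SE 0.13, edgeR adjusted p = 0.00457). Nfix, a nuclear factor of glial development, had 37.7 ± 4.95 CPM in PTX and 59.6 ± 10.2 CPM in CTRL (-0.66, SE 0.14, edgeR adjusted p = 0.00401). Stat3 was thus higher in the PTX libraries in which Gfap was lower.

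**Figure D5:**
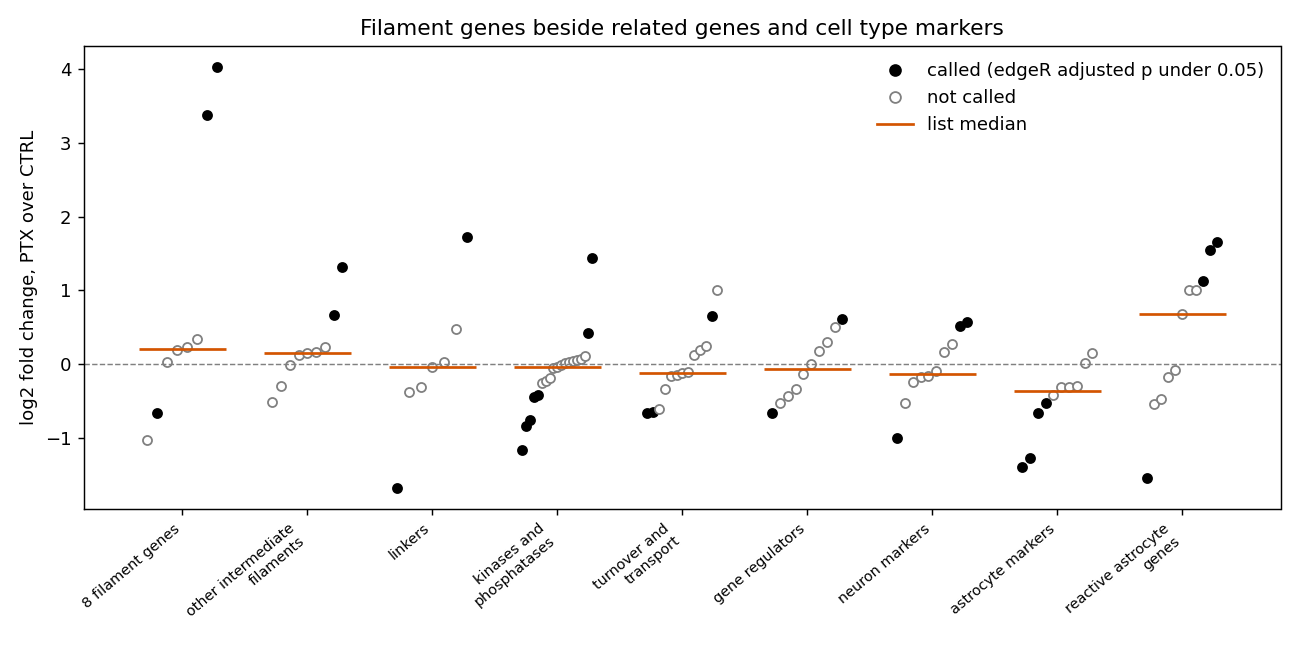
Log2 fold change, PTX over CTRL, of the 8 filament genes and of the tested genes of 5 related lists and 3 marker lists; filled points are called in the edgeR fit with group alone and orange lines are list medians. Nefl and Nefm lie above every other point, and the median of the astrocyte markers (-0.37) lies below 0 while that of the reactive astrocyte genes (0.68) lies above it.

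Markers of the cells that carry these filaments were read from the same fit, where 19.0% of all tested genes were called higher and 20.1% lower. With the replicate block these shares were 25.7% and 29.6%. Of 10 pan-neuronal genes, 2 rose and 1 fell (3 and 4 with the replicate block): Map2, a dendritic microtubule protein (0.57, SE 0.15, edgeR adjusted p = 0.0135, and 0.0533 without CTRL library 2), Gap43, a growth cone protein (0.52, SE 0.14, edgeR adjusted p = 0.0133), and Rbfox3, the NeuN splicing factor of neuronal nuclei (-0.997, SE 0.14, edgeR adjusted p = 0.000309). Of 10 astrocyte genes, 4 fell and the other 6 were not called (8 fell with the replicate block). Among the 4 were the water channel Aqp4 (-1.27, SE 0.14, edgeR adjusted p = 8.44e-05), Aldoc, an astrocyte aldolase (-1.39, SE 0.15, edgeR adjusted p = 8.26e-05), and the bicarbonate transporter Slc4a4 (-0.67, SE 0.11, edgeR adjusted p = 0.00105). The other, the glutamate transporter Slc1a2 (-0.52, SE 0.17, edgeR adjusted p = 0.0314), lost its call without PTX library 2, 3 or 4, without CTRL library 1, 2 or 3 and with another scaling, the highest edgeR adjusted p being 0.143. Gfap thus stood beside a lower summed astrocyte level, 4703 to 6141 CPM in PTX and 5718 to 7681 CPM in CTRL, while Slc1a3 (0.02, SE 0.18) and Aldh1l1 (0.15, SE 0.19) were not called. Aldh1l1 was called higher in 2 of 15 alternatives. These were without PTX library 1 (edgeR adjusted p = 0.0388) and the replicate block without the libraries numbered 1 (edgeR adjusted p = 0.0118). The part of astrocyte number or state in the Gfap value was not tested.

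Of 11 genes of reactive astrocytes, 3 rose and 1 fell (6 and 2 with the replicate block), while Gfap was lower. Over all tested genes, 19.0% were called higher and 20.1% lower (25.7% and 29.6% with the replicate block). The list is small, so nothing is read from its counts. Cd44, a hyaluronan receptor, had 129.8 ± 28.2 CPM in PTX and 41.0 ± 10.3 CPM in CTRL (log2 fold change 1.66, SE 0.21, edgeR adjusted p = 0.000209), Timp1, a metalloprotease inhibitor, rose by 1.54 (SE 0.24, edgeR adjusted p = 0.000693), and Steap4 fell by 1.54 (SE 0.37, edgeR adjusted p = 0.00759) on the log2 scale. Lcn2 (1.12, SE 0.35, edgeR adjusted p = 0.0294) lost its call without PTX library 2 or 3 or CTRL library 1, 3 or 4, the highest edgeR adjusted p being 0.0737. Of 10 tested progenitor genes, Hes1 rose (0.54, SE 0.12, edgeR adjusted p = 0.00576), and Hes5 (-2.69, SE 0.47, edgeR adjusted p = 0.00146) and Fabp7 (-0.60, SE 0.16, edgeR adjusted p = 0.0141) fell (2 rose and 2 fell with the replicate block). Hes5 was scarce, with 21 reads in PTX and 152 in CTRL. These are values beside Nes and Vim, and their part in those levels was not tested.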

How the data were processed

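RNA-seq was deposited by the authors as raw read counts per Ensembl gene, 1 table per library, from ribosomal RNA-depleted total RNA per the labels' protocols. The submitters' processing notes name CASAVA 1.8, TopHat2 2.0.9, HTSeq 0.6.1, Bowtie2 2.2.4 and build mm10, without roles. The sources used here do not give the strand setting of the counting or the release of the annotation. ChIP-seq was deposited by the authors as 1 peak list with a score per peak, described as IDR peaks, IDR being a filter on reproducibility between replicates. Nor do they give the peak caller, whether samples were pooled, or how the L3mbtl1-/- samples were used.

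Of 43629 identifiers, 42462 matched a symbol. The 5 summary lines of each table were left out: 19.9% to 26.8% of alignments were assigned to no counted feature and 15.2% to 20.5% were not unique. Within each group, no library was a copy of another, and PTX libraries were not checked in this way against CTRL libraries. PTX and CTRL were compared with edgeR 4.0.16 in R 4.3.3 (quasi-likelihood F test, TMM, filterByExpr, group as the only term), and a Benjamini-Hochberg adjusted p under 0.05 over 15959 genes was a call. The code was tested on simulated data. Deviations of same-numbered PTX and CTRL libraries correlated at 0.154 to 0.77, all over 0.1, beside -0.501 to 0.209 for libraries of unlike number (CTRL library 3 was closer to PTX libraries 2 and 4 than to PTX library 3). The numbers in the sample titles were therefore taken to pair the libraries. Since the labels state no pairing, group alone stayed the main fit and the replicate block is an alternative. With group alone, variation shared by a pair stays in the error, as the SE of Vim in both fits shows. The series' design calls the cultures biological replicates.

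The members and lists were chosen with earlier results of these data known. Named genes are all 8 members, up to 3 called genes of smallest p per list and direction, exceptions within a list, the 2 genes most like each member, and genes sharing a peak with a member; the sets named outside this rule are said to be so. A few list genes are counted but not reported here by name. Gene positions are from RefSeq GRCm38.p6, in a table without strand. Neurofilament shares were planned per transcript length, and are given per read count, because no transcript lengths were used here. Alternatives were DESeq2 1.42.0, other scaling and filters, each library left out, both libraries numbered 1 left out, and other peak windows and scores.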

Additional observations from a re-analysis of the deposited data

Results flagged for a closer look

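Within groups of 4 libraries, 24 groups of values of the 8 genes and of the neurofilament shares were checked for a library far from the others, and chance sets about 1 in 20 such groups apart. Nefh in CTRL library 1 was 23.6 CPM, against 9.76 to 12 CPM in the other CTRL libraries, and the PTX library of the same number was also the highest of its group at 23.4 CPM. The share of Nefh in the counts of Nefl, Nefm, Nefh and Ina was 2.34% in CTRL library 2, against 4.07% to 4.35% in the other CTRL libraries.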

How the results depend on the processing

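Of the 15 alternatives, none changed the direction or the call of Nefl (log2 fold change 3.22 to 3.68), Nefm (3.85 to 4.4), Gfap (-0.78 to -0.52) or Ina (0.08 to 0.32). The replicate block called 4 of the 8 genes higher and 2 lower, by adding Vim, Nes and Prph. Leaving out the libraries numbered 1 with the block, an alternative chosen after seeing the data, also gave 4 higher and 2 lower. Without the block, leaving out both gave 3 higher and 2 lower, and leaving out single libraries gave 1 to 2 lower, 2 without PTX library 1. In the related lists the block called 14 higher and 18 lower, and 15 higher and 15 lower without the libraries numbered 1. The block ended no call of the 8 genes. Nefh had no settled direction when single libraries were left out. Its log2 fold change moved from -0.25 without PTX library 1 to 0.44 without CTRL library 1, each the highest Nefh library of its group. It was -0.11, -0.05 and -0.06 without CTRL libraries 2, 3 and 4. With both libraries numbered 1 left out it was 0.09 (SE 0.15), and with the replicate block 0.04 (SE 0.09). Why Nefh was high in the libraries numbered 1 was not tested. Over all genes, calls ran from 2519 to 3356 higher and 2207 to 3199 lower with single libraries left out. Without the libraries numbered 1, 3313 of 16056 tested genes were called higher and 2729 lower, and with the block as well 4203 higher and 3671 lower. The block over all libraries called 25.7% of tested genes higher and 29.6% lower. A peak window of 500 bp, or peaks at or above the median score, left 4 of the 8 genes with a peak in place of 5. The length-scaled subunit shares were not run. Prph rests on 123 reads in PTX and 272 in CTRL, which limits its precision.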

Other observations

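Marker lists of further cell types were read beside the 8 filament genes, and no explanation is drawn from them. Their counts stand beside 19.0% of all tested genes called higher and 20.1% lower with group alone. With the replicate block these shares were 25.7% and 29.6%. Of 8 tested fibroblast genes, 0 were called by edgeR with group alone, 0 had an unadjusted p under 0.05 and 0 were called by DESeq2, while 4 fell with the replicate block. Of 7 tested genes of the oligodendrocyte lineage, 0 were called by edgeR, 0 had an unadjusted p under 0.05 and 0 were called by DESeq2, while 4 rose with the replicate block. Of 5 tested endothelial and mural genes, Flt1, a VEGF receptor, rose to 3.03 ± 1.11 CPM in PTX, against 1.09 ± 0.26 CPM in CTRL (log2 fold change 1.47, SE 0.34, edgeR adjusted p = 0.00618), and 2 rose and 1 fell with the replicate block. Of 6 tested microglial genes, Cd68, a lysosomal protein of phagocytes, rose to 30.6 ± 8.60 CPM in PTX, against 9.61 ± 4.01 CPM in CTRL (1.67, SE 0.33, edgeR adjusted p = 0.00297), and 3 rose and 0 fell with the replicate block. The summed microglial level overlapped, at 41.1 to 135.4 CPM in PTX and 15.2 to 69.1 CPM in CTRL. Of the peripheral sensory genes, Calca was called higher (0.70, SE 0.23, edgeR adjusted p = 0.0373), a call lost without PTX library 2 or 3, without CTRL library 1, 3 or 4 and without the filter on low counts, with p up to 0.0877. Isl1, too low to be tested, had 22 reads in PTX and 3 in CTRL.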
